A study of Mus musculus with 6 samples.

Results

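The T cell receptor complex and its proximal kinases and adaptors were followed in CD8 T cells sorted from mouse pancreas. The set holds 10 genes chosen by name: the CD3 chain genes Cd3d, Cd3e, Cd3g and Cd247, the co-receptor genes Cd8a and Cd8b1, the kinase genes Lck and Zap70, and the adaptor genes Lat and Lcp2. The platform annotation names exactly 1 probe for each of 9 of them, out of 19929 genes measured in all, and names none for Lck, so Lck was not analysed here. All 9 passed the filter on dim genes, with a mean log2 value over the 6 arrays between 7.91 (Zap70) and 11.38 (Cd3g) against a limit of 5.47.

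The cells came from Rip-B7xAI4 mice, a genotype resistant to type 1 diabetes, or from AI4 mice, which developed it. Both groups carry the AI4 antigen receptor on a C57BL/6.H2g7/g7 background. Rip-B7x adds the inhibitory ligand B7x under the rat insulin promoter, which is active in beta cells, so the transgene and the disease state cannot be told apart. There were 3 arrays per group, called biological replicates in the titles. Pancreata were pooled before sorting, and how many mice and of what age is not stated in the labels. The sort took cells that bound both anti-CD8 and the MimA2/H-2Db tetramer, so the CD8 protein and the receptor's specificity were themselves used to choose the cells. All values are log2 expression, and differences are Rip-B7xAI4 minus AI4.

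The antigen-binding chains of a T cell receptor have tails too short to signal. The receptor is assembled with the CD3 delta, epsilon, gamma and zeta chains, whose tyrosine motifs are phosphorylated by Lck, a kinase that rides on the tail of the CD8 co-receptor. Phosphorylated motifs recruit the kinase ZAP-70, which in turn phosphorylates the membrane adaptor LAT and the cytosolic adaptor SLP-76 (encoded by Lcp2), and from these the calcium, Ras and cytoskeletal signals branch out. Loss of CD3 zeta protein and of surface co-receptor is known from chronically stimulated T cells. Transcript levels, the quantity measured here, need not follow surface protein.

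The CD3 delta, epsilon and gamma genes are neighbours on mouse chromosome 9. In the RefSeq gene table of GRCm38.p6, Cd3g is followed by Cd3d and Cd3d by Cd3e with no other gene listed between them, and Cd8b1 and Cd8a lie side by side on chromosome 6. The CD3 neighbours had estimates on the same side of 0 in the comparison below, and Cd8a and Lat had estimates on the other side. None of these estimates passed. The promoter windows of these 5 genes are shown. Cd247, Lcp2 and Cd8b1 also had estimates on the side of Cd8a, but Cd8b1 has no window and those of Cd247 and Lcp2 are not printed. Each window runs from 250 bases before to 50 bases after a RefSeq gene start on GRCm38.p6, on the strand of the gene. Capitals mark matches on either strand to the letters AGGAAG (an ETS factor core), TGTGGT (a RUNX core) or CAGGTG (an E-box), factor families that act at many T cell genes.
Cd3g, chr9:44980382-44980681, minus strand: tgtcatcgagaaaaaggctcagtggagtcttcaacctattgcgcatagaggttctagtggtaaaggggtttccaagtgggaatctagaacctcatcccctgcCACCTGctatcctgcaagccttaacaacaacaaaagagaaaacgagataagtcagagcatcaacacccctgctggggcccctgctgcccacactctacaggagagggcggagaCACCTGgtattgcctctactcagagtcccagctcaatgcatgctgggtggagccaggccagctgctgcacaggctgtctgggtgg
Cd3d, chr9:44981536-44981835, plus strand: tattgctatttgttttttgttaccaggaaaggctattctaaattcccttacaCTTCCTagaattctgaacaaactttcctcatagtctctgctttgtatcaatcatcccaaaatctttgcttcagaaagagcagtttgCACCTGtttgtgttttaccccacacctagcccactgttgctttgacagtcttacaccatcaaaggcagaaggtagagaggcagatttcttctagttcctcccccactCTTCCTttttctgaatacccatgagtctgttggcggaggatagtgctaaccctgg
Cd3e, chr9:45009562-45009861, minus strand: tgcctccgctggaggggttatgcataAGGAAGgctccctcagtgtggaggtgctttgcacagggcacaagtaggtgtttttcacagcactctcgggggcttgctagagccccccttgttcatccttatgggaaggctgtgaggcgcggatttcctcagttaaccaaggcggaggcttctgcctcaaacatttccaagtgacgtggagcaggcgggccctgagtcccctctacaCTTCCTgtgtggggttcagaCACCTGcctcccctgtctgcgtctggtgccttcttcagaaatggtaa
Cd8a, chr6:71373177-71373476, plus strand: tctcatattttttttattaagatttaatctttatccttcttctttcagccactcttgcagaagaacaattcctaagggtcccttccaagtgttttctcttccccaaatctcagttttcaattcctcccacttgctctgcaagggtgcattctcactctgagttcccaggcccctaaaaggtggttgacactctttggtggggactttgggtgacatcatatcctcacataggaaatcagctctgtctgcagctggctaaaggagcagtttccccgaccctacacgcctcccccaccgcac
Lat, chr7:126369519-126369818, minus strand: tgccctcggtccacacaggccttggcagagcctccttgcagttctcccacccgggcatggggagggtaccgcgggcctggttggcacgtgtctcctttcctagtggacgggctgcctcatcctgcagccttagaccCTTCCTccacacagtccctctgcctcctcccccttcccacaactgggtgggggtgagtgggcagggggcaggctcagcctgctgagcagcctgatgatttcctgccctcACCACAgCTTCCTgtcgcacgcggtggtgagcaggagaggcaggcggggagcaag
The Cd3d and Cd3e windows each held 2 ETS matches and 1 E-box match, and the Cd3g window held 2 E-box matches and 0 ETS matches. The Cd8a window held 0 matches to any of the 3 motifs, and the Lat window held 2 ETS matches and 1 RUNX match. No matches overlapped in these windows. The windows of Cd247 and Lcp2, not printed, each held 2 ETS matches, and that of Cd247 also held 1 E-box match. Over all 32851 promoter windows of the same length, 35.4% held the ETS letters, 16.8% the RUNX letters and 20.2% the E-box letters. A match describes the letters only.

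None of the 9 genes passed an adjusted p of 0.05 in limma between Rip-B7xAI4 and AI4 cells. The background is that 0.00717% of the 13950 genes tested passed. The lowest adjusted p among the 9 was 0.559 (Cd8b1). Point estimates were positive for 4 genes and negative for 5, beside 39% positive and 61% negative over all genes tested, and lay between -1.001 (Cd8b1) and 0.88 (Cd3e), with a median of -0.11 beside -0.10 over all genes tested. Without adjustment, 1 of the 9 (11.1%) had p under 0.05, beside 8.73% of all genes tested. In 1 of the 9 (11.1%) the groups were fully separate, beside 17.9% of all genes tested. Both shares rest on 1 gene each, and neither is a result about the 9 genes. Cd3d, Cd3e and Cd3g had positive estimates, and Cd247 and both co-receptor genes had negative ones.

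Cd3e, the epsilon chain that pairs with both delta and gamma, stood at 11.19, 11.01 and 10.65 in Rip-B7xAI4 replicates 1 to 3, against 9.11, 10.50 and 10.59 in AI4 replicates 1 to 3. Every Rip-B7xAI4 array lay above every AI4 array, although the closest pair was only a few hundredths apart, and AI4 replicate 1 stood far below the rest. The mean was 10.95 ± 0.28 in Rip-B7xAI4 and 10.07 ± 0.83 in AI4 (SD, n = 3 each), and the difference of 0.88 ± 0.42 (SE; 95% interval -0.11 to 1.87) did not pass (limma adjusted p = 0.575). Without AI4 replicate 1 the difference was 0.41.

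Cd3g, the gamma chain, stood at 11.56, 11.96 and 11.23 in Rip-B7xAI4, against 10.41, 11.58 and 11.52 in AI4. Cd3d, the delta chain, stood at 11.20, 11.52 and 10.78 in Rip-B7xAI4, against 10.19, 11.35 and 11.42 in AI4. For both genes the groups overlapped, and AI4 replicate 1 was again the lowest of the 6 arrays, about a log2 unit below the other AI4 arrays. The differences were 0.41 ± 0.37 (SE; 95% interval -0.46 to 1.29) for Cd3g and 0.18 ± 0.38 (-0.72 to 1.08) for Cd3d. Without AI4 replicate 1 the estimate for Cd3d was on the other side of 0, at -0.21, and that for Cd3g was 0.03.

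Cd247 encodes the zeta chain, which brings most of the complex's phosphorylation motifs. It stood at 8.02, 8.73 and 7.68 in Rip-B7xAI4, against 8.02, 8.52 and 8.68 in AI4. The groups overlapped, with Rip-B7xAI4 replicate 2 the highest and Rip-B7xAI4 replicate 3 the lowest of all arrays. The difference was -0.27 ± 0.32 (SE; 95% interval -1.03 to 0.49), between -0.56 and -0.04 with 1 array left out.

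**Figure D1:**
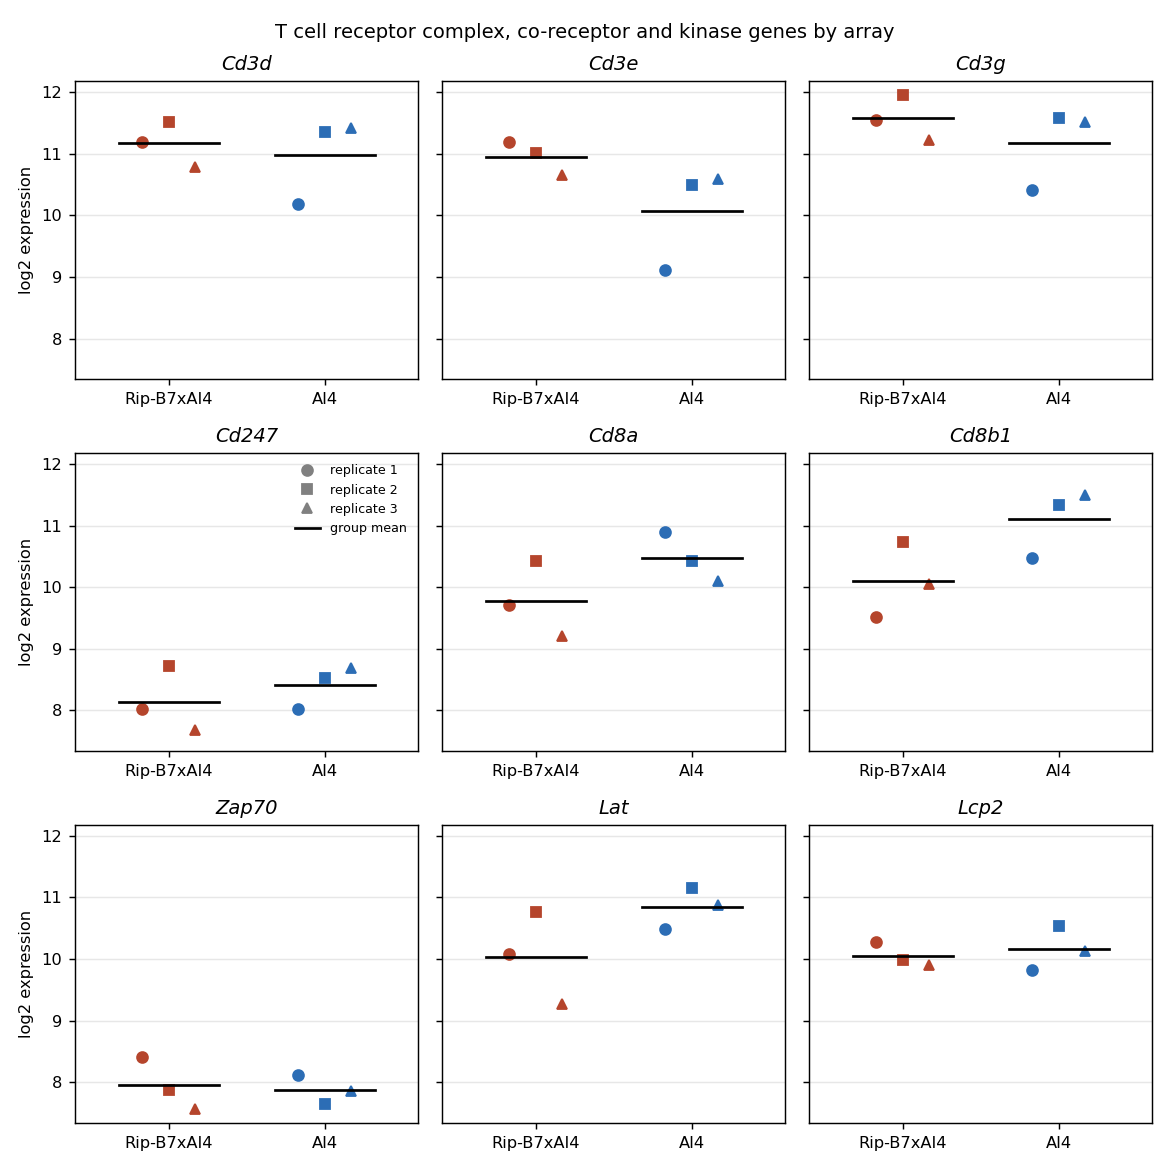
Log2 expression (y axis) of the 9 measured genes in each array, with Rip-B7xAI4 (red) left of AI4 (blue), the replicate given by the shape of the point and the group mean as a black line. For Cd3d, Cd3e, Cd3g and Lcp2 AI4 replicate 1 lies below all other arrays, and for Cd247, Cd8a, Zap70 and Lat Rip-B7xAI4 replicate 3 does.

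The co-receptor genes stood on the other side. Cd8b1, the beta chain that makes CD8 an efficient co-receptor on conventional T cells, stood at 9.53, 10.73 and 10.05 in Rip-B7xAI4, against 10.48, 11.34 and 11.49 in AI4. Rip-B7xAI4 replicate 2 reached above AI4 replicate 1, and the other Rip-B7xAI4 arrays lay below all AI4 arrays. The mean was 10.10 ± 0.61 in Rip-B7xAI4 and 11.10 ± 0.54 in AI4 (SD, n = 3 each). The difference was -1.001 ± 0.39 (SE; 95% interval -1.93 to -0.07) and did not pass after adjustment (limma adjusted p = 0.559). Cd8b1 was the 1 gene of the 9 with an unadjusted p under 0.05. It was lower, as were 3.17% of all genes tested with such a p, and 0 of the 9 were higher with such a p, beside 5.56% of all genes tested.

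Cd8a, the alpha chain, which also forms homodimers without the beta chain and whose tail carries Lck, stood at 9.71, 10.42 and 9.21 in Rip-B7xAI4, against 10.89, 10.43 and 10.10 in AI4. Rip-B7xAI4 replicate 2 lay within the AI4 range and the others below it. The difference was -0.69 ± 0.35 (SE; 95% interval -1.54 to 0.15; limma adjusted p = 0.582), and -0.41 without Rip-B7xAI4 replicate 3.

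Among the signalling proteins, Lat, the membrane adaptor, stood at 10.08, 10.76 and 9.27 in Rip-B7xAI4, against 10.48, 11.16 and 10.88 in AI4. Replicate 2 of Rip-B7xAI4 lay inside the AI4 range, and its replicate 3 was the lowest array by far. The difference was -0.80 ± 0.39 (SE; 95% interval -1.74 to 0.13; limma adjusted p = 0.579), and -0.42 without that array. Zap70, the kinase, stood at 8.42, 7.87 and 7.56 in Rip-B7xAI4, against 8.11, 7.65 and 7.86 in AI4, and differed by 0.08 ± 0.26 (95% interval -0.55 to 0.70). Lcp2, the cytosolic adaptor, stood at 10.28, 9.99 and 9.90 in Rip-B7xAI4, against 9.82, 10.54 and 10.14 in AI4, and differed by -0.11 ± 0.23 (95% interval -0.67 to 0.45). The arrays of the groups were interleaved for both genes, and the intervals of both exclude a change of a log2 unit in either direction.

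**Figure D2:**
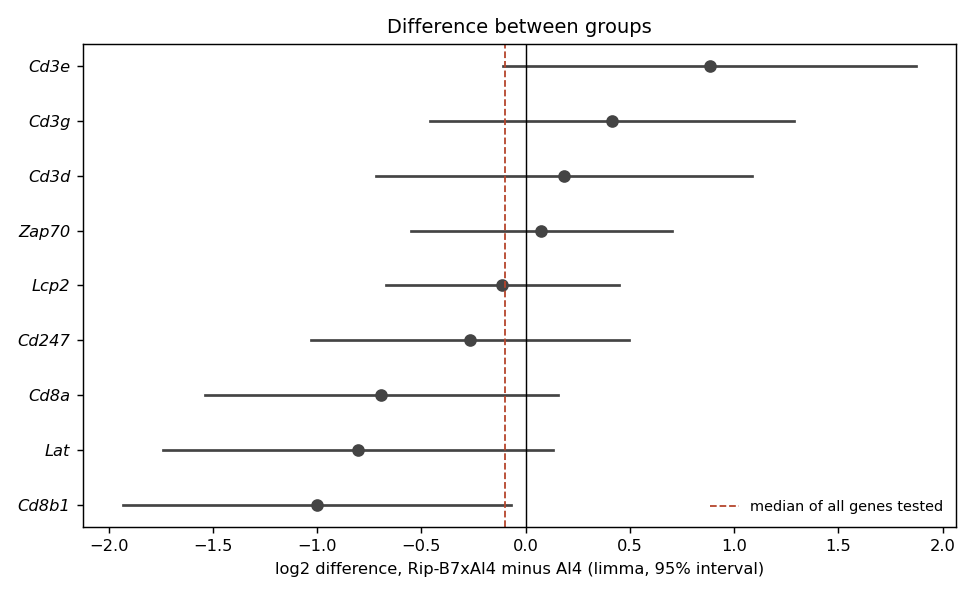
Log2 difference of each gene, Rip-B7xAI4 minus AI4 (x axis), with the limma estimate as a point and its 95% interval as a line; the dashed line is the median over all genes tested, -0.10. Cd3e is at the top with 0.88 and Cd8b1 at the bottom with -1.001, the only 1 of the 9 intervals that does not include 0.

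Arrays also differed within each group. In Rip-B7xAI4, replicate 3 was the lowest of its group for 8 of the 9 genes, all but Cd8b1, and replicate 2 was the highest for 6. In AI4, replicate 1 was the lowest of its group for 7 of the 9, all but Cd8a and Zap70. The mean of the 9 genes by array was 9.997, 10.33 and 9.59 in Rip-B7xAI4, against 9.72, 10.34 and 10.30 in AI4.

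Markers of other cells also differed between arrays. All 12 myeloid cell markers had a positive estimate and 0 passed after adjustment. Their log2 summed level was 13.16, 9.52 and 12.87 in Rip-B7xAI4 replicates 1 to 3, against 9.34 to 9.83 in AI4, so Rip-B7xAI4 replicates 1 and 3 stood apart and replicate 2 did not. Within Rip-B7xAI4 the mean of the 9 genes was 9.997, 10.33 and 9.59 in replicates 1 to 3. In AI4 that mean was 9.72, 10.34 and 10.30, and the myeloid level was 9.83, 9.34 and 9.77. Whether these levels are linked was not tested. Of the 5 dendritic cell markers, Xcr1 and Clec9a, picked after their values were seen and too dim over all arrays to be tested, stood at 7.75 and 7.85 in Rip-B7xAI4 replicate 3, against 4.36 to 5.46 in the other 5 arrays. Itgax stood at 7.29, 6.73 and 7.10 in Rip-B7xAI4, against 5.29, 5.86 and 5.68 in AI4 (limma adjusted p = 0.179). Zbtb46 stood at 5.64, 6.02 and 6.01 in Rip-B7xAI4, against 5.93, 5.97 and 5.61 in AI4, and Flt3 differed by -0.11 ± 0.41 (SE). The summed level of the dendritic cell list was 8.03 to 9.56 in Rip-B7xAI4 and 7.63 to 7.98 in AI4, and that of the 7 measured B cell markers was 8.76 to 10.09 in Rip-B7xAI4 and 8.76 to 9.32 in AI4. That of the 3 NK cell markers, none bright enough to test, was 6.41 to 7.36 in Rip-B7xAI4 and 6.11 to 6.43 in AI4. Cd4, which marks helper T cells, stood between 5.47 and 6.24 in Rip-B7xAI4 and between 5.49 and 5.89 in AI4, near the array medians of 5.94 to 6.10. The 4 measured acinar cell markers summed to 7.73 to 7.90 in Rip-B7xAI4 and 7.79 to 7.94 in AI4, and the 4 measured beta cell markers to 7.09 to 7.51 in Rip-B7xAI4 and 7.43 to 7.52 in AI4. In a bulk sample, fewer T cells among the sorted cells and less RNA of a gene per T cell cannot be told apart.

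With Rip-B7xAI4 replicates 1 and 3 left out together, the remaining array differed from AI4 by -0.05 for Cd8a, -0.08 for Lat and -0.37 for Cd8b1. In the same fit Cd3e differed by 0.94, Cd3g by 0.79 and Cd3d by 0.54. The lone array is assumed there to vary like the AI4 arrays, and 0 of the 9 genes passed. When each array's myeloid marker mean was added as a covariate, the differences were -0.18 for Cd8a, -0.18 for Lat, -0.37 for Cd8b1 and 0.97 for Cd3e. The part of the other cells in these differences was not tested, and the remaining Rip-B7xAI4 array was also the highest of its group for 6 of the 9 genes.

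**Figure D3:**
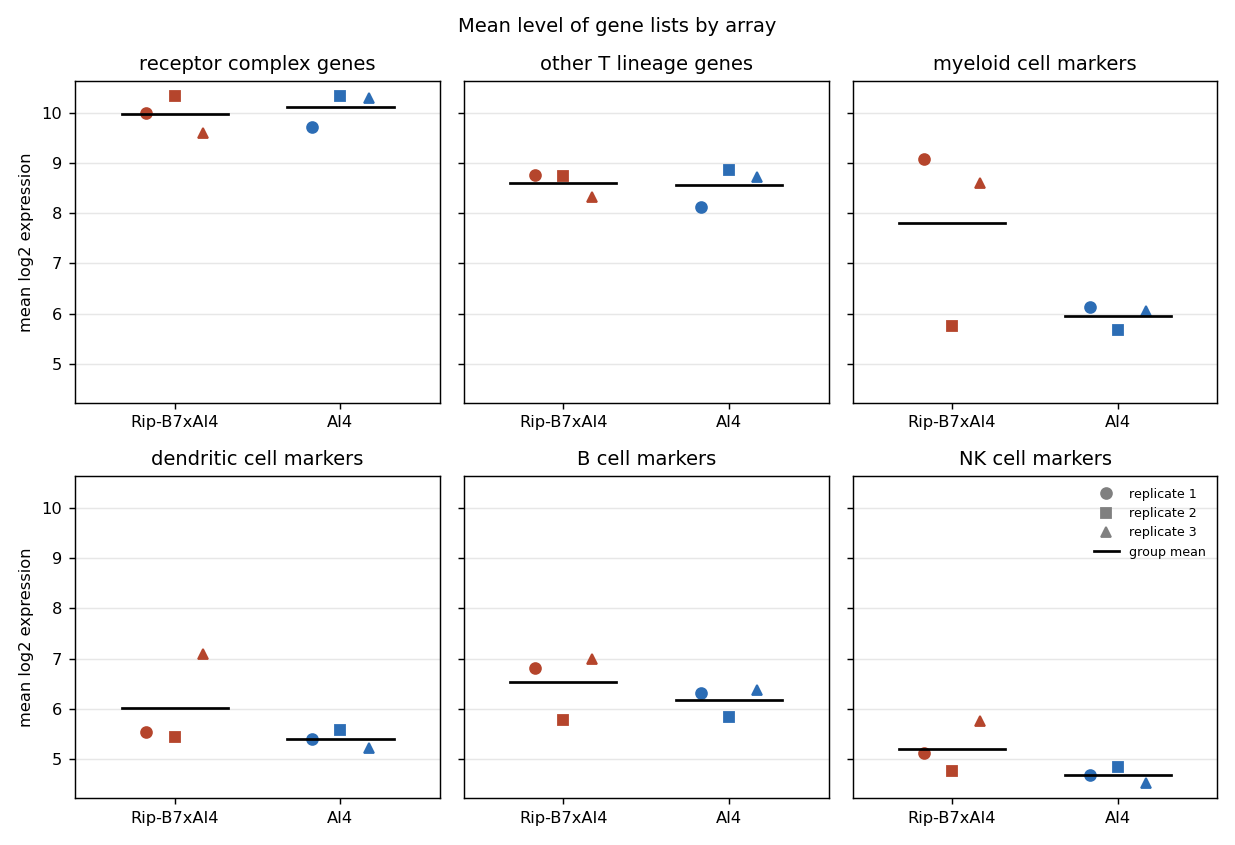
Mean log2 expression (y axis) of 6 gene lists in each array, with Rip-B7xAI4 (red) left of AI4 (blue), replicates by shape and group means as black lines. Myeloid cell markers are high in Rip-B7xAI4 replicates 1 and 3 only, and dendritic cell markers in replicate 3, while the 9 receptor complex genes lie between 9.59 and 10.34 in all arrays.

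A shift in brightness shared by all genes of an array cancels in a difference within that array, but a difference in spread does not. The interquartile range of the probes lay between 1.71 (AI4 replicate 1) and 2.13 (Rip-B7xAI4 replicate 1). Its part in the values below was not tested. Because probes differ in brightness, the size of a difference within 1 array has no meaning, and only its change between arrays is read. Of 4 such differences, chosen with earlier results of these data known, the groups did not overlap in 1. They were tested with a two-sided exact permutation test over the arrays, for which the smallest possible p is 0.1. Cd247 less the mean of Cd3d, Cd3e and Cd3g was -3.30, -2.77 and -3.21 in Rip-B7xAI4, against -1.89, -2.62 and -2.49 in AI4. All Rip-B7xAI4 arrays lay below all AI4 arrays, and the mean shifted by -0.76 on the log2 scale, with an exact permutation p = 0.1 (0.4 adjusted over the 4). Over the alternatives tried, this shift lay between -0.92 and -0.44.

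The 3 other differences overlapped between the groups. Cd8a less Cd8b1, which compares the co-receptor chains, was 0.18, -0.31 and -0.84 in Rip-B7xAI4, against 0.41, -0.91 and -1.40 in AI4 (shift 0.31, exact permutation p = 0.7). That shift was -0.07 without AI4 replicate 3 and 0.83 without AI4 replicate 1. Zap70 less Syk, the relative of ZAP-70 that B cells and myeloid cells use, was 1.40, 1.97 and 1.25 in Rip-B7xAI4, against 1.84, 1.61 and 1.81 in AI4 (shift -0.21, exact permutation p = 0.4). The highest Zap70 less Syk value of the 6 was that of Rip-B7xAI4 replicate 2, and the lowest were those of replicates 1 and 3. Syk stood at 7.01, 5.91 and 6.31 in Rip-B7xAI4, against 6.27, 6.04 and 6.04 in AI4. Zap70 was lowest of all arrays in Rip-B7xAI4 replicate 3, at 7.56. The source of these array differences was not tested. The mean of the 9 genes less that of 8 other T lineage genes shifted by -0.18 (exact permutation p = 0.3).

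The CD3 genes were also set against the CD8 genes. This contrast was picked after the values had been seen, so it gets no test. The mean of Cd3d, Cd3e and Cd3g less the mean of Cd8a and Cd8b1 was 1.70, 0.92 and 1.26 in Rip-B7xAI4, against -0.78, 0.26 and 0.38 in AI4. The groups did not overlap, which picking a contrast in this way favours. The shift of 1.34 was 0.97 both without AI4 replicate 1 and with Rip-B7xAI4 replicates 1 and 3 left out together. With the myeloid covariate it was 1.04. These values come from the same arrays and give the contrast no separate support.

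**Figure D4:**
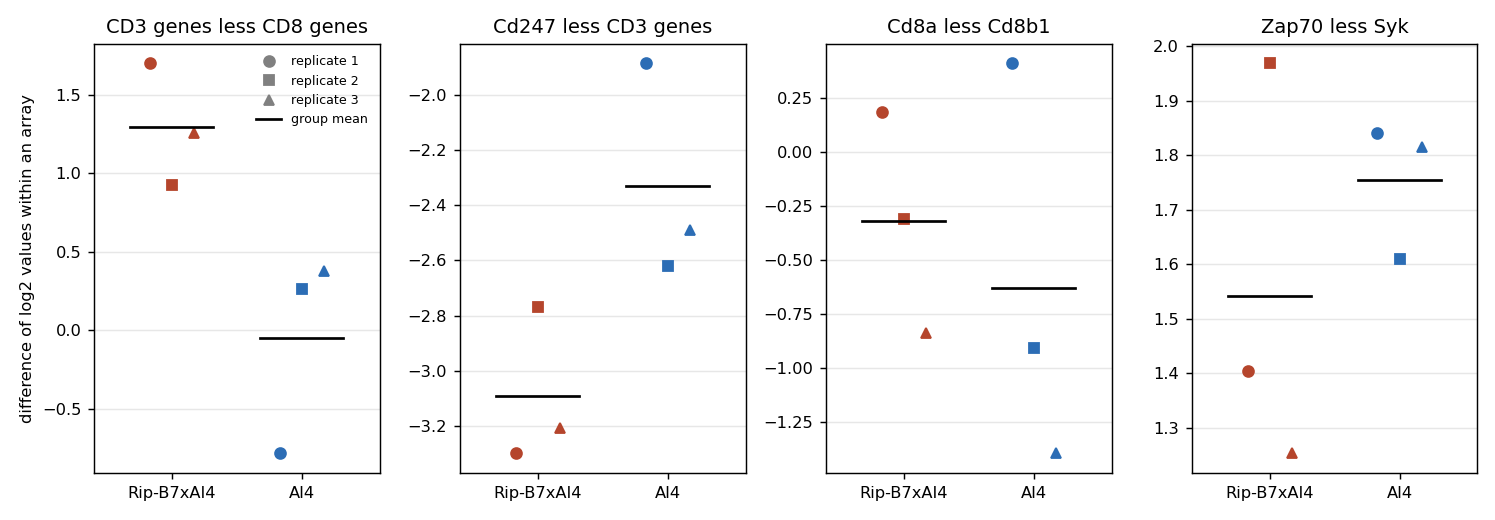
Difference of log2 values within an array (y axis, a separate range for each panel) for 4 pairs of genes or gene groups, with Rip-B7xAI4 (red) left of AI4 (blue), replicates by shape and group means as black lines. The groups are separate for CD3 genes less CD8 genes and for Cd247 less CD3 genes, and they overlap for Cd8a less Cd8b1 and for Zap70 less Syk. The contrast of CD3 genes less CD8 genes was picked after the values had been seen.

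Genes that act beside or after the receptor were counted from lists of named genes, chosen with earlier results of these data known. Of 23 tested signalling partners, 0 passed after adjustment, 11 had a positive and 12 a negative estimate, and the median was -0.03. The kinase genes Txk, of the Tec family, and Prkcq, encoding protein kinase C theta, differed by -1.06 ± 0.45 (SE) and -0.86 ± 0.27. The LAT-binding adaptor Grap2 (Gads) and its relative Grap differed by -0.55 ± 0.28 and -0.67 ± 0.29. These 4 genes had the smallest p of the list, a choice that favours separate groups. They were the 4 of the 23 in which every Rip-B7xAI4 array lay below every AI4 array, beside 11.9% of all genes tested. Every Rip-B7xAI4 array lay above every AI4 array in 0 of the 23, beside 5.99% of all genes tested. Fyn, the other Src family kinase of T cells, differed by 0.70 ± 0.39, and Themis, an adaptor best known from thymocytes, by -0.57 ± 0.39. Ptprc encodes CD45, the phosphatase that keeps Lck primed, and differed by 0.01 ± 0.16.

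Of 17 genes that restrain these steps, 0 passed after adjustment, 10 had a positive and 7 a negative estimate, and the median was 0.03. Ubash3b (Sts-1), a phosphatase that acts on ZAP-70, stood at 9.07, 8.74 and 7.48 in Rip-B7xAI4, against 6.15, 7.18 and 6.90 in AI4, and differed by 1.69 ± 0.47 (SE; limma adjusted p = 0.464). All Rip-B7xAI4 arrays were above all AI4 arrays in 2 of the 17, Ubash3b and Sla, beside 5.99% of all genes tested. They were below all AI4 arrays in 2 of the 17, Dgka and Dok1, beside 11.9% of all genes tested. Cblb, a ubiquitin ligase that limits T cell activation, differed by 1.15 ± 0.41, and the phosphatase gene Ptpn2 by 1.37 ± 0.60, or by 0.51 when the gene's probes were averaged. Dgka, a diacylglycerol kinase, differed by -0.80 ± 0.35. Csk, the kinase that phosphorylates the inhibitory tyrosine of Lck, differed by 0.11 ± 0.24.

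All 6 tested counterparts of these genes outside T cells had a positive estimate and 0 passed after adjustment, with a median of 0.46. Fcer1g, the Fc receptor gamma chain that resembles CD3 zeta, stood at 7.61, 6.67 and 8.89 in Rip-B7xAI4, against 6.21, 6.19 and 5.58 in AI4, and differed by 1.73 ± 0.54 (SE). Tyrobp (DAP12) of myeloid and NK cells differed by 1.91 ± 1.04, Lat2 by 0.43 ± 0.25, Fgr by 0.41 ± 0.29 and Syk by 0.29 ± 0.30. Tyrobp was at 11.12, 8.15 and 11.58 in Rip-B7xAI4 and between 7.27 and 9.89 in AI4. With Rip-B7xAI4 replicates 1 and 3 left out together, Tyrobp, Fgr and Syk had estimates below 0 (-0.22, -0.17 and -0.21). In the same fit Fcer1g and Lat2 stayed above 0 (0.68 and 0.35).

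Other T lineage genes gave the level of T cell transcripts outside the receptor complex. Of 7 tested, 0 passed after adjustment and the median was -0.02. Thy1, a surface marker of all mouse T cells, stood at 11.79, 12.15 and 11.83 in Rip-B7xAI4, against 12.17, 11.97 and 11.91 in AI4 and differed by -0.09 ± 0.18 (SE). Sh2d1a, the SLAM adaptor SAP, differed by 1.49 ± 0.38, Cd6, a surface receptor of T cells, by -0.85 ± 0.43 and the transcription factor gene Bcl11b by -0.25 ± 0.16.

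**Figure D5:**
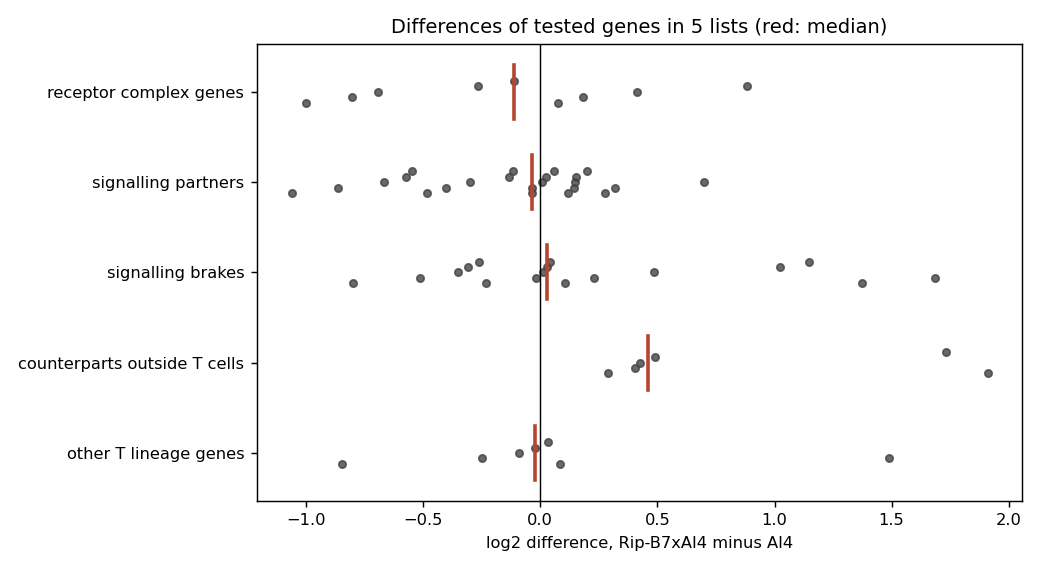
Log2 difference, Rip-B7xAI4 minus AI4 (x axis), of each tested gene (points) in 5 gene lists (y axis), with the list's median as a red line; the vertical offset of points only separates them. The medians of the receptor complex genes, their partners, their brakes and the other T lineage genes lie between -0.11 and 0.03, and that of the counterparts outside T cells is 0.46.

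Among tested genes outside the set, those whose array values were most like the mean of the 9 genes were Rasal3, Nsmce1, Rpl6, Chchd3 and Rpl26. Their Pearson correlation with it over the 6 arrays lay between 0.979 (Rpl26) and 0.994 (Rasal3). This is a description over arrays that also differ in the levels of markers of other cells. Rasal3, which encodes a Ras GTPase-activating protein, stood at 7.99, 8.41 and 7.64 in Rip-B7xAI4, against 7.71, 8.43 and 8.31 in AI4. It shows the same order of arrays within each group as the mean of the 9 genes. Picking genes by their correlation with that mean over 6 arrays favours such a match.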

How the data were processed

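Per the labels' protocols, cells from pooled pancreata were sorted, and total RNA was labelled with biotin for 6 single-colour Affymetrix arrays. Values were made with Affymetrix Expression Console, per the submitters' processing notes, which give no version or summarisation method. The deposited values are normalized, 1 for each probe on each array, and were taken as log2 from their range. They were used without further normalization.

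Of 28325 probes, 21760 had 1 gene symbol in the platform annotation; the probe with the highest mean was kept for each of 19929 genes, and the dimmest 30% were not tested, leaving 13950. No measure of background was used here. Groups came from the titles. Differences were estimated by limma 3.58.1 under R 4.3.3 (linear model and empirical Bayes), two-sided, without a block, with Benjamini-Hochberg adjustment over all genes tested. The fit was tested on simulated data with independent errors. Those data lack the differences between whole arrays seen here, so they cannot show how the fit behaves with them. Labels do not say that arrays of a group came from separate mice, and their number limits the precision.

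Genes named were all 9 measured members, up to 4 genes of each list by smallest p, a fixed set that is always named, and the 5 genes most like the members' mean; the dendritic cell markers were picked for naming after their values were seen. Members, lists and tests were chosen with earlier results of these data known. No annotated receptor constant gene had a probe of its own. No label says that shared replicate numbers pair the arrays. Correlations of deviations from the group means between same-numbered arrays were -0.08, 0.06 and -0.22. With so few arrays these values cannot decide whether arrays were paired, so the block was run as an alternative. Promoter sequences are those of RefSeq, and 9 of the 10 members, Lck included, matched, while Cd8b1 did not.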

Additional observations from a re-analysis of the deposited data

How the results depend on the processing

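The count of receptor complex genes past the adjusted p limit was 0 under all 17 alternatives, which were the replicate number as a block, each array left out, Rip-B7xAI4 replicates 1 and 3 left out together, quantile normalization, median centring, centring on T lineage genes, a 50% filter on dim genes or none, averaging the probes of each gene, trend and robust variance, array weights and the myeloid marker covariate; their lowest adjusted p was 0.254, for Cd8b1 with array weights. Quantile normalization left the median of all genes at -0.10 and put that of the 9 genes at -0.33. The replicate block left the median of the 9 at -0.11 with a lowest adjusted p of 0.496, and changed no call among them; over all genes it gave 0 calls against 1. Receptor complex genes without overlap between groups numbered 1 in the design reported and 1 to 5 with an array left out, beside 17.9% and 24% to 36.7% of all genes tested; the 5 came without Rip-B7xAI4 replicate 2 (28.1% of all genes), where Cd247, Cd8a, Cd8b1 and Lat lay all lower. They numbered 4 with Rip-B7xAI4 replicates 1 and 3 left out together (52.1% of all genes), 3 after quantile normalization (16.6%) and 4 after T lineage centring (7.28%). T lineage centring called 242 genes over all, 1 signalling brake (Ubash3b, 1.65) and 2 counterparts (Fcer1g, 1.69, and Tyrobp, 1.87), each with a standard error of 0.45 because limma then gave these genes the same spread.

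Some estimates, none of them called, changed direction. With Rip-B7xAI4 replicates 1 and 3 left out together, Cd247 was 0.32, Zap70 -0.0011, Ptprc -0.088, Tyrobp -0.22, Fgr -0.17, Syk -0.21 and Thy1 0.13, Zap70 less Syk 0.21 and the 9 genes less other T lineage genes 0.042. With the myeloid covariate, which sets apart the same arrays, these were 0.25, -0.078, -0.083, -0.087, -0.080, -0.21, 0.099, 0.13 and 0.0057 in that order. Quantile normalization gave Zap70 -0.14, Ptprc -0.048 and Csk -0.097, T lineage centring gave Ptprc -0.030 and array weights gave Thy1 0.053. With an array left out, Zap70 lay between -0.16 and 0.27, Ptprc between -0.045 and 0.084, Csk between -0.015 and 0.33, Syk between -0.013 and 0.54, Cd3d between -0.21 and 0.40 and Lcp2 between -0.28 and 0.076. Other uncalled estimates moved by over 1.5 times when 1 array was left out, among them Grap2 at -0.26 and Themis at -0.25 without AI4 replicate 3, Grap at -0.36, Fyn at 0.32 and Ptpn2 at 0.86 without AI4 replicate 1, Txk at -0.56 and Dgka at -0.41 without Rip-B7xAI4 replicate 3, Cd6 at -0.51 without AI4 replicate 2, and Tyrobp at 2.98 without Rip-B7xAI4 replicate 2. Lck less Fyn could not be run without a probe for Lck, and a pseudocount does not apply to log2 values.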
